A study of Homo sapiens with 6 samples.

Results

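In the human neuroblastoma line SK-N-AS, 63 genes were read at or above log2 5 on every untreated array and under log2 5 on both arrays of cells that had been pretreated with a demethylating drug. These 63 genes are 0.699% of the 9018 genes at or above that limit on all untreated arrays, and 0.319% of the 19775 genes with a probe set of a single gene symbol. They were chosen from the deposited expression values by this pattern alone, with the probe set of the highest mean standing for each gene, so their low level after pretreatment is the rule and not a finding. PTPRC and KRT8 showed the pattern too and were left out by name, which brought 65 genes to 63.

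Messenger RNA was measured on 6 Affymetrix HG-U133 Plus 2.0 arrays, 2 for each of 3 cultures. iCSC cells were exposed as an attached layer to 2.5 uM 5AdC (5-aza-2'-deoxycytidine) for 5 days and then moved into medium without serum, where they formed spheroids. Sphere cells formed spheroids in serum-free medium with no pretreatment, and Monolayer cells grew attached with no pretreatment. All 3 cultures are of 1 cell line, and iCSC differs from Monolayer in both the drug and the spheroid culture, so only Sphere shares its culture form. Whether paired arrays stand for separate cultures is not stated in the labels, so p-values measure only the spread between arrays, which may be technical, and 2 arrays a culture limit the precision. Values are log2 GCRMA signals, in which probe sets without signal gather in a low band. The median of all 54675 probe sets lay at 2.78 and 2.79 on the iCSC arrays, at 2.79 and 2.82 on the Sphere arrays and at 2.80 and 2.83 on the Monolayer arrays.

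Of the sympathetic neuroblast markers measured, 6 were at or above the limit on both iCSC arrays, 6 in Sphere and 2 in Monolayer, and their summed log2 level was 47.98 to 49.13, 60.64 to 64.04 and 35.62 to 36.08. Of 8 leukocyte markers, only LCP1 reached the limit on both arrays of a culture, in Sphere, with 4.66 and 8.14 on the iCSC arrays, and CD14, CD3D, CD3E, TYROBP and SPI1 lay far under it, the highest of them CD3D at 2.45 on Monolayer replicate 1. Array controls at both ends of the ACTB transcript, whose log2 difference grows as RNA is shortened, differed by 1.47 and 1.40 in iCSC, 1.22 and 1.21 in Sphere, and 1.25 and 1.16 in Monolayer. The same controls for GAPDH differed by 0.169 and 0.204 in iCSC, 0.122 and 0.148 in Sphere, and 0.154 and 0.165 in Monolayer. The part of these differences in the levels below was not tested. In a culture measured as a whole, fewer cells that make a transcript and less of it per cell cannot be told apart.

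Methylation of cytosine in CG dinucleotides near a transcription start usually goes with a silent gene. 5AdC is built into DNA, traps DNA methyltransferases and lets methylation be lost as cells divide, so the drug is known mainly for switching genes on. Methylation was not measured in these samples. CG content was read in windows from 250 bases before to 50 bases after a transcription start, from RefSeq on GRCh38.p14, which held 82 windows for 54 of the 63 genes. A window of these genes held a median of 18 CG, against 26 in the 11047 windows of 7583 genes at the limit on all untreated arrays. Taking each gene's richest window, the medians were 27 and 29. In 10 of the 54 genes (18.5%) no window held more than 10 CG, against 290 of the 7583 genes (3.82%), and these 10 are C1R, CASP4, GBP3, MR1, PTGES, PTX3, RASSF2, RIPOR3, S100A3 and SDK1. These shares are a description, with no test, and the windows may not cover every start of a gene.

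**Figure D1:**
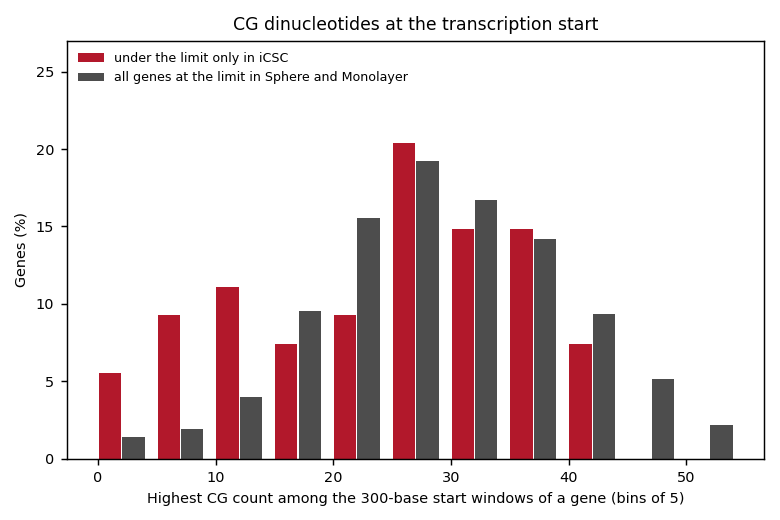
Percent of genes (vertical axis) by the highest number of CG dinucleotides in any start window of the gene (horizontal axis, bins of 5), for the 54 genes under the limit only in iCSC (red) and the 7583 genes at the limit on all Sphere and Monolayer arrays (grey). In the 3 bins under 15 CG the red bars stand at 5.56%, 9.26% and 11.1%, against 1.37%, 1.91% and 3.98% for the grey bars, and the fullest bin of both sets is the one from 25 CG. Genes over 54 CG, of which the red set has none, are not drawn.

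The start windows of 4 of the genes with large differences are shown, with CG counts from 33 to 0. ADAM12 (chr10:126388428-126388727, minus strand) held 33 CG, HSPA2 (chr14:64540491-64540790, plus strand) 21, PTX3 (chr3:157436600-157436899, plus strand) 7 and GBP3 (chr1:89022817-89023116, minus strand) 0. Each is written 5′ to 3′ along the gene. Capitals mark every CG in the windows of ADAM12, HSPA2 and PTX3. In the GBP3 window, capitals mark a match, on the opposite strand and just after the start, to the core of the interferon-stimulated response element, a pair of GAAA runs with NN between them.
ADAM12: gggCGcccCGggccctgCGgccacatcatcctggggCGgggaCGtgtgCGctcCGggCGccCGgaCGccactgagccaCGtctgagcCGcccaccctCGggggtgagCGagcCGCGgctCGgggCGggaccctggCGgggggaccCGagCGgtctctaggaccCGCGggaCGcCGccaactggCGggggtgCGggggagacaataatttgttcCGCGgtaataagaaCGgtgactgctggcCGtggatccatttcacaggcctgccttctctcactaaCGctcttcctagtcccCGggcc
HSPA2: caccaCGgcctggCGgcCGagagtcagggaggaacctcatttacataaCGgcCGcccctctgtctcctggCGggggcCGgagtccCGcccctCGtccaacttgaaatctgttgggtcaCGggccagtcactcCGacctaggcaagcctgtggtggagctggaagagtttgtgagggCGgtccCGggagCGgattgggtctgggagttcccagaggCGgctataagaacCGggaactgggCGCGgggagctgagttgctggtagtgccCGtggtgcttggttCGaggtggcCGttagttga
PTX3: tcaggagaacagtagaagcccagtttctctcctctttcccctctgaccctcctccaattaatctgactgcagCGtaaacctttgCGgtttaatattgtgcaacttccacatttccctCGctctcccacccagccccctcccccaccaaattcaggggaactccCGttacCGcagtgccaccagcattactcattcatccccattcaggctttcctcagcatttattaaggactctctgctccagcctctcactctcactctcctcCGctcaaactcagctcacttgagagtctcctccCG
GBP3: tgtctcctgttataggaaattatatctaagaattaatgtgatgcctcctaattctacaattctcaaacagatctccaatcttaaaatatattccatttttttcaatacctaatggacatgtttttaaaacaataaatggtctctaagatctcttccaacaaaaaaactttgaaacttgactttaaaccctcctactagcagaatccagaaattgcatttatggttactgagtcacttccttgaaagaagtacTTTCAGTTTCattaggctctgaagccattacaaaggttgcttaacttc
Searched on both strands, TGANTCA, the core of the AP-1 site, was present in 11.0% of the 82 windows, in 4.61% of the windows of genes at the limit and in 7.71% of all 35116 windows. Those 9 windows belong to 8 genes, among them ARRDC4, ARSJ, GBP3 and S100A3. GGGCGG, the core of the SP1 site, was present in 56.1%, 67.9% and 45.0% of the same windows. TATAAA was present in 6.10%, 5.43% and 11.5%, an NF-kappaB motif (GGG and TTTCC with NN between them) in 1.22%, 2.19% and 1.91%, and the interferon response core in 1.22%, 2.77% and 3.57%. A match is a run of letters and not a measured site, and windows of 1 gene can overlap.

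The 63 genes ranged from large losses of signal to genes that straddled the limit. The mean iCSC level had a median of 3.97 and ran from 2.28 to 4.93. Mean Sphere levels had a median of 6.46 and ran from 5.01 to 11.08, and mean Monolayer levels had a median of 6.89 and ran from 5.01 to 14.24. With iCSC values set to the limit of 5, the smaller of the Sphere and Monolayer differences was a factor of 2 or more (1 on the log2 scale) in 32 genes, at least 2 log2 in 12, at least 3 in 7 and at least 4 in 3. The other 31 genes had a bound under 1, and the median bound was 2.11-fold.

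The word silenced, used as a working name for these genes, held only in part. Both iCSC arrays lay at or under the array's median of all probe sets in only 2 genes, ADAM12 and NOVA2. The iCSC mean was 4 or more in 29 genes, from 3 to 4 in 24 and under 3 in 10. For 46 genes the lowest untreated array stood over 1 log2 above the highest iCSC array, and for 9 genes this gap was under 0.5. The genes are therefore described here as under the limit only in iCSC.

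**Figure D2:**
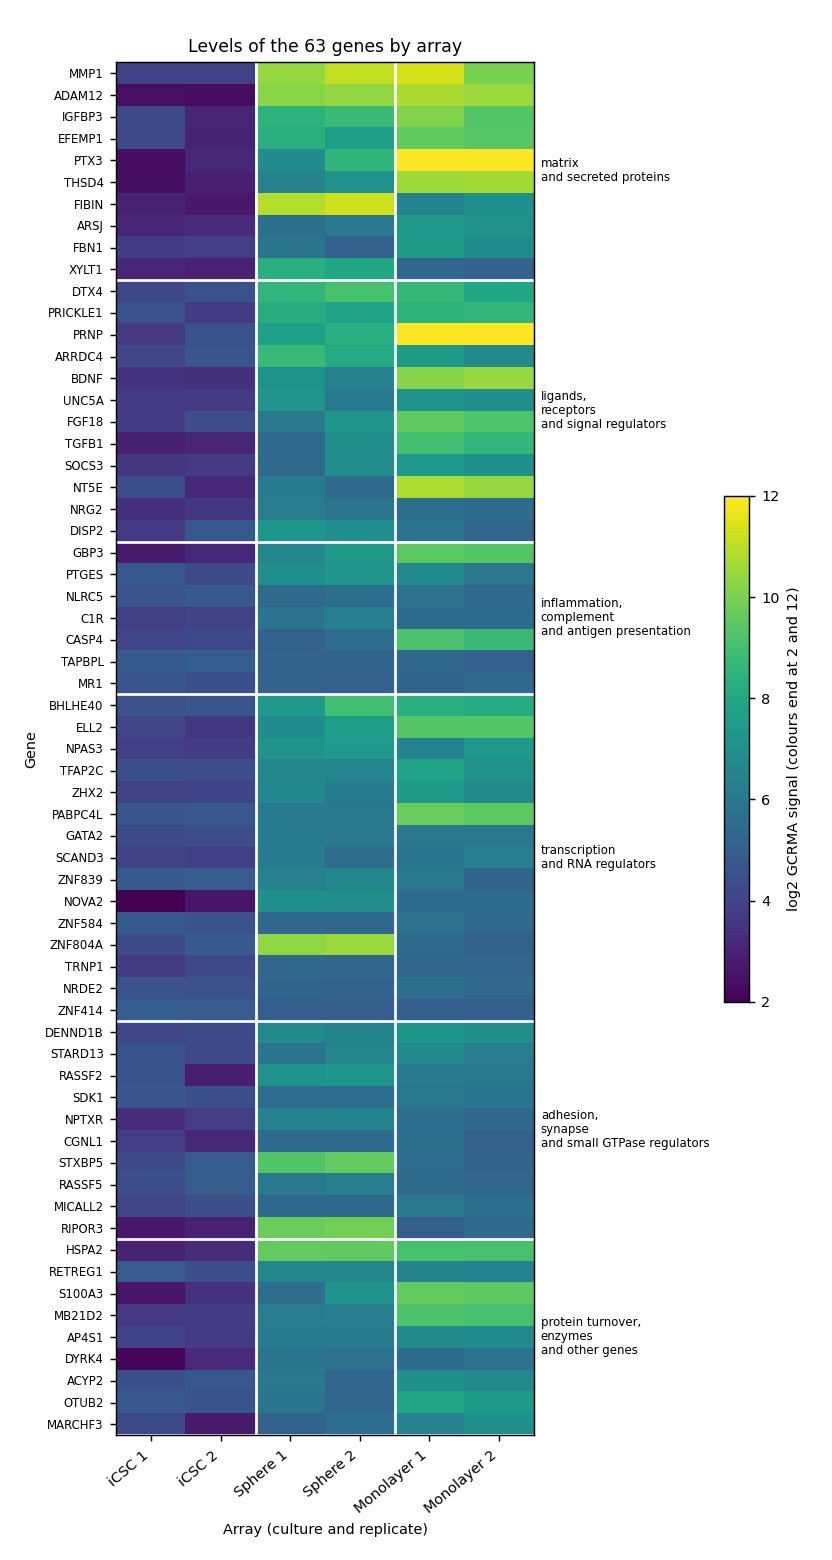
Level of each of the 63 genes (rows, grouped by the role of the product) on each of the 6 arrays (columns, iCSC, Sphere, Monolayer), as log2 GCRMA signal with colours ending at 2 and 12. The 2 iCSC columns are dark throughout because the rule asked for values under 5, while the bright cells differ between the Sphere and Monolayer columns.

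The cultures without drug were not alike in these genes. The rule set no direction between Sphere and Monolayer, but it asked that all 4 of their arrays stand at the limit, so the comparison is among genes chosen in part on these values. With limma and Benjamini-Hochberg adjustment over 10459 tested genes, 32 of the 63 genes (50.8%) differed between Sphere and Monolayer, 20 lower and 12 higher in Sphere, and 35 had an unadjusted p under 0.05. Of all tested genes 59.0% were called, 29.1% lower and 30.0% higher, and of the 9018 genes at the limit in both cultures 55.2% were called, 28.9% lower and 26.4% higher. The share called was near that of the other genes. Of the 63, 18 (28.6%) were both called and at least 2-fold lower in Sphere, and 8 (12.7%) both called and at least 2-fold higher. The shares of the genes at the limit, counted the same way, were 9.94% and 10.6%. The median size of the difference, without sign, was 0.87 log2 in the 63 genes and 0.46 in the genes at the limit, and the signed medians were -0.29 and -0.02. No test was made of these set values, which describe the genes chosen.

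PTX3, the secreted long pentraxin of innate immunity whose CG-poor start is printed above, had the largest difference between the untreated cultures among the 63 genes. Its signal was 2.36 and 3.16 in iCSC, 6.83 and 8.53 in Sphere, and 14.20 and 14.29 in Monolayer. No arrays of different cultures overlapped, and the Sphere arrays stood well apart. Sphere was lower than Monolayer by 94.4-fold, a log2 difference of -6.56 ± 0.54 (SE; limma, adjusted p = 0.000104). In iCSC PTX3 was at least 6.41-fold lower than in Sphere and at least 605-fold lower than in Monolayer.

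NT5E (CD73), the surface enzyme that makes adenosine from AMP, showed the same order of cultures. It read 4.35 and 3.12 in iCSC, 6.17 and 5.47 in Sphere, and 10.78 and 10.42 in Monolayer. Only the Monolayer arrays were well above the limit, and the Sphere difference from them was -4.78 ± 0.43 (log2, SE; limma, adjusted p = 0.000162). PRNP, the cellular prion protein, read 3.68 and 4.53 in iCSC, 7.67 and 8.30 in Sphere, and 12.67 and 12.80 in Monolayer. Its Sphere and Monolayer arrays were far apart, with a difference of -4.75 ± 0.32 (log2, SE; limma, adjusted p = 4.08e-05), and iCSC was at least 7.90-fold below Sphere. With a further PRNP probe set, given below, Sphere too lay under the limit. CASP4, an inflammatory caspase that senses bacterial lipopolysaccharide in the cytosol, read 4.10 and 4.20 in iCSC, 5.11 and 5.59 in Sphere, and 9.17 and 8.79 in Monolayer. It was close to the limit in Sphere, and Sphere was far lower than Monolayer (-3.63 ± 0.23 log2, SE; limma, adjusted p = 3.10e-05).

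THSD4, an ADAMTS-like protein of fibrillin microfibrils, read 2.37 and 2.87 in iCSC, 6.46 and 7.04 in Sphere, and 10.53 and 10.63 in Monolayer. The cultures stood at 3 separate levels, and Sphere differed from Monolayer by -3.83 ± 0.26 (log2, SE; limma, adjusted p = 4.29e-05). BDNF, a neurotrophin that signals through the TrkB receptor, read 3.45 and 3.40 in iCSC, 7.13 and 6.35 in Sphere, and 10.17 and 10.47 in Monolayer. Its iCSC arrays were nearly equal, and Sphere was lower than Monolayer by 11.9-fold (log2 -3.58 ± 0.28, SE; limma, adjusted p = 7.61e-05). PABPC4L, a relative of the cytoplasmic poly(A)-binding protein, read 4.63 and 4.71 in iCSC, 6.17 and 6.04 in Sphere, and 9.66 and 9.47 in Monolayer. The iCSC and Sphere arrays were nearer to each other than to Monolayer, and the Sphere difference from Monolayer was -3.46 ± 0.16 (log2, SE; limma, adjusted p = 8.32e-06). S100A3, a calcium-binding protein, read 2.60 and 3.44 in iCSC, 5.56 and 7.10 in Sphere, and 9.61 and 9.48 in Monolayer. The Sphere arrays differed from each other, and the call against Monolayer (-3.21 ± 0.52 log2, SE; limma, adjusted p = 0.00204) rested on arrays that did not overlap.

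Other genes were higher in Sphere than in Monolayer. ZNF804A, a zinc finger protein, read 4.29 and 4.78 in iCSC, 10.35 and 10.51 in Sphere, and 5.47 and 5.10 in Monolayer. Only the Sphere arrays were high, by 5.14 ± 0.23 over Monolayer (log2, SE; limma, adjusted p = 6.77e-06), and iCSC was at least 43.1-fold below Sphere but bounded at only 1.22-fold below Monolayer. RIPOR3 read 2.66 and 2.92 in iCSC, 9.72 and 9.87 in Sphere, and 5.02 and 5.41 in Monolayer. Its pattern was of the same kind, with a Sphere excess of 24.0-fold (limma, adjusted p = 6.98e-06). FIBIN, a secreted protein named for fin bud initiation in zebrafish, read 2.95 and 2.68 in iCSC, 10.90 and 11.26 in Sphere, and 6.47 and 7.03 in Monolayer. Its Sphere arrays were the highest of the 6, 4.33 ± 0.25 above Monolayer (log2, SE; limma, adjusted p = 1.96e-05), and iCSC was at least 67.6-fold below Sphere.

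STXBP5 (tomosyn), which holds back the SNARE proteins of vesicle fusion, read 4.28 and 4.92 in iCSC, 9.28 and 9.59 in Sphere, and 5.57 and 5.19 in Monolayer. The higher iCSC array lay only 0.28 under the lower Monolayer array, while Sphere exceeded Monolayer by 4.05 ± 0.27 (log2, SE; limma, adjusted p = 3.92e-05). XYLT1, the xylosyltransferase that starts glycosaminoglycan chains on proteoglycans, read 3.07 and 2.92 in iCSC, 8.28 and 7.99 in Sphere, and 5.32 and 5.13 in Monolayer. Monolayer was just over the limit, and the Sphere excess was 7.49-fold (limma, adjusted p = 3.53e-05). DISP2, a relative of the Dispatched protein that releases Hedgehog ligands, read 3.71 and 4.76 in iCSC, 7.25 and 6.89 in Sphere, and 5.84 and 5.24 in Monolayer. NOVA2, a neuronal splicing factor, read 1.95 and 2.61 in iCSC, 7.03 and 6.93 in Sphere, and 5.51 and 5.51 in Monolayer. ARRDC4, an alpha-arrestin, read 4.11 and 4.66 in iCSC, 8.75 and 8.17 in Sphere, and 7.45 and 6.75 in Monolayer. All 3 were higher in Sphere than in Monolayer, by 2.89-fold for DISP2, 2.77-fold for NOVA2 and 2.58-fold for ARRDC4 (limma, adjusted p = 0.0135, 0.00235 and 0.0118). The calls of DISP2 and ARRDC4 were lost without Sphere replicate 1, without Monolayer replicate 2 and without variance moderation, with adjusted p over all alternatives from 0.00208 to 0.100 and from 0.00817 to 0.0909.

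**Figure D3:**
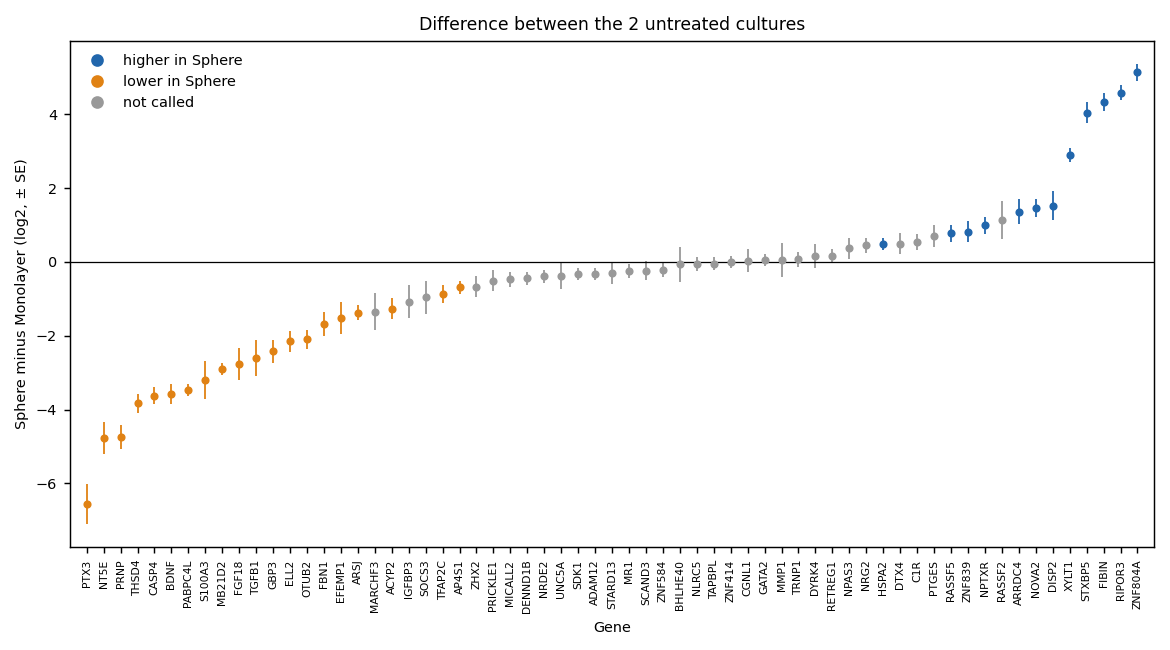
Difference between the untreated cultures, Sphere minus Monolayer, in log2 (vertical axis, points with limma standard error) for each of the 63 genes (horizontal axis, in order of the difference). Orange points are the 20 genes called lower in Sphere, blue points the 12 called higher and grey points the 31 not called, and the values run from -6.56 for PTX3 to 5.14 for ZNF804A.

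Matrix and secreted proteins, 10 of the 63 genes, held the 2 largest bounds. MMP1, the interstitial collagenase that cuts fibrillar collagen, read 3.96 and 3.98 in iCSC, 10.41 and 11.09 in Sphere, and 11.40 and 9.97 in Monolayer. The untreated arrays overlapped and the iCSC arrays lay far below them, at least 53.8-fold lower than Sphere and at least 51.5-fold lower than Monolayer. ADAM12, a metalloprotease that sheds membrane-bound growth factors, read 2.43 and 2.35 in iCSC, 10.22 and 10.37 in Sphere, and 10.73 and 10.51 in Monolayer. Both iCSC arrays lay under the median of all probe sets, at least 39.2-fold below Sphere and 49.2-fold below Monolayer, and its start, printed above, was rich in CG. Neither gene was called between Sphere and Monolayer, with log2 differences of 0.06 ± 0.46 for MMP1 and -0.33 ± 0.15 for ADAM12 (SE; limma, adjusted p = 0.923 and 0.110).

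IGFBP3, which binds insulin-like growth factors outside the cell, read 4.32 and 3.02 in iCSC, 8.45 and 8.81 in Sphere, and 10.09 and 9.33 in Monolayer. EFEMP1 (fibulin-3), a matrix glycoprotein, read 4.22 and 2.97 in iCSC, 8.33 and 7.56 in Sphere, and 9.54 and 9.40 in Monolayer. In both genes the iCSC arrays were over 1 log2 apart, yet each lay at least 3.34 under the lowest untreated array. The bound against Sphere was at least 12.4-fold for IGFBP3 and at least 7.70-fold for EFEMP1. A further EFEMP1 probe set, given below, lay under the limit in Sphere as well. FBN1, fibrillin-1 of elastic microfibrils, read 3.73 and 3.84 in iCSC, 5.86 and 5.06 in Sphere, and 7.46 and 6.85 in Monolayer. Of the 10 genes, 5 were lower in Sphere than in Monolayer, 2 were higher and 3 were not called. Over the genes at the limit 28.9% were lower and 26.4% higher.

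Other matrix genes moved in both directions. Of 50 tested genes on a list of matrix proteins, proteases and inhibitors, which holds MMP1, ADAM12, EFEMP1 and FBN1, 21 were lower and 12 higher in iCSC than in Sphere (limma with Benjamini-Hochberg adjustment; all genes, 19.2% lower and 19.3% higher). Against Monolayer, 22 were lower and 18 higher (all genes, 26.6% lower and 29.0% higher). The 4 members count among the lower genes by the rule, which leaves 17 and 18 others, and the iCSC arrays are shared by both comparisons. The list medians were -0.37 and -0.15, against 0.01 and 0.02 over all tested genes. THBS1 (thrombospondin-1), a matrix glycoprotein that binds cells, fell to 6.27 and 6.19 in iCSC, against 7.99 and 8.14 in Sphere and 11.55 and 11.61 in Monolayer (log2 -1.83 ± 0.13 and -5.35 ± 0.13, SE; limma, adjusted p = 9.41e-05 and 9.19e-07). VCAN (versican), a large proteoglycan, fell to 6.23 and 6.76 in iCSC, against 11.36 and 11.65 in Sphere and 7.80 and 7.65 in Monolayer. SMOC1, a calcium-binding matrix protein, went the other way, with 8.23 and 7.26 in iCSC and 2.13 and 2.19 in Sphere, and 2.15 and 2.17 in Monolayer. MMP2, a gelatinase, stayed well above the limit in iCSC at 9.43 and 9.16, against 10.72 and 10.77 in Sphere and 10.28 and 10.19 in Monolayer. Its fall of 1.45 ± 0.12 and 0.94 ± 0.12 on the log2 scale (SE; limma, adjusted p = 0.00021 and 0.000848) left it measured on every array.

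Ligands, receptors and signal regulators made up 12 of the 63 genes, and the bound reached 1 log2 in 9 of them. DTX4, a Deltex-family ubiquitin ligase tied to Notch, read 4.15 and 4.53 in iCSC, 8.57 and 9.08 in Sphere, and 8.67 and 7.99 in Monolayer. PRICKLE1, a planar cell polarity protein, read 4.51 and 3.76 in iCSC, 8.22 and 7.84 in Sphere, and 8.47 and 8.59 in Monolayer. UNC5A, a netrin receptor of axon guidance, read 3.70 and 3.72 in iCSC, 7.22 and 6.06 in Sphere, and 7.12 and 6.92 in Monolayer. None of these 3 genes was called between Sphere and Monolayer (limma, adjusted p over 0.05), and the bounds below both were at least 10.04-fold for DTX4, 8.17-fold for PRICKLE1 and 3.12-fold for UNC5A.

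FGF18, a secreted fibroblast growth factor, read 3.77 and 4.38 in iCSC, 5.99 and 7.28 in Sphere, and 9.58 and 9.24 in Monolayer. TGFB1, the transforming growth factor that drives matrix production in many tissues, read 2.87 and 3.08 in iCSC, 5.41 and 6.99 in Sphere, and 8.98 and 8.64 in Monolayer. SOCS3, which blocks cytokine signalling through JAK and STAT, read 3.59 and 3.70 in iCSC, 5.46 and 6.94 in Sphere, and 7.32 and 7.002 in Monolayer. In all 3 genes the Sphere arrays were over 1 log2 apart, with replicate 2 the higher one. FGF18 and TGFB1 were lower in Sphere than in Monolayer by 6.84-fold and 6.09-fold (limma, adjusted p = 0.00180 and 0.00378), and SOCS3 was not called (adjusted p = 0.112). TGFB1 lost its call without variance moderation (adjusted p = 0.0608, range over the alternatives 0.000551 to 0.0608). SOCS3 passed the test only without Sphere replicate 2 (adjusted p = 0.00369, range over the alternatives 0.00369 to 0.473).

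Relatives of these ligands on fixed lists moved in both directions. Of 33 growth factors and receptor kinases tested, 8 were lower and 11 higher in iCSC than in Sphere, and 15 were lower and 8 higher than in Monolayer, BDNF and FGF18 counted among the lower. For this list and the next 3, the shares over all tested genes were 19.2% lower and 19.3% higher than in Sphere, and 26.6% lower and 29.0% higher than in Monolayer, and several of the counts lie near them. PDGFD, a platelet-derived growth factor, fell to 5.88 and 5.91 in iCSC, against 8.12 and 8.04 in Sphere and 11.33 and 11.56 in Monolayer. Against it, MERTK, a receptor kinase of the TAM family, rose to 9.11 and 8.93 in iCSC, against 7.30 and 6.91 in Sphere and 5.36 and 4.95 in Monolayer (limma, adjusted p = 0.000883 and 2.5e-05). Of 29 TGF-beta and BMP genes, 5 were lower and 8 higher than in Sphere, and 11 were lower and 12 higher than in Monolayer, TGFB1 counted among the lower. BMP4 fell, with 4.15 and 5.95 in iCSC, 9.84 and 9.72 in Sphere, and 8.15 and 8.48 in Monolayer, and BMP7 rose, with 10.16 and 10.004 in iCSC, 7.99 and 7.67 in Sphere, and 2.42 and 3.08 in Monolayer. Of 19 Notch genes, DTX4 was the 1 lower in iCSC than in Sphere, 7 were higher, and 7 were lower and 5 higher than in Monolayer. Of 39 axon guidance genes, 7 were lower and 13 higher than in Sphere, and 12 were lower and 16 higher than in Monolayer, UNC5A counted among the lower.

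Genes of inflammation, complement and antigen presentation, 7 in number, mostly lay close to the limit, and only 2 had a bound of 1 log2 or more. GBP3, an interferon-inducible GTPase, read 2.74 and 3.12 in iCSC, 6.55 and 7.43 in Sphere, and 9.49 and 9.31 in Monolayer. It was at least 3.96-fold lower in iCSC than in Sphere and 5.34-fold lower in Sphere than in Monolayer (limma, adjusted p = 0.000776), and its start window, printed above, held no CG. NLRC5, the activator of class I antigen presentation genes, read 4.62 and 4.83 in iCSC, 5.45 and 5.62 in Sphere, and 5.72 and 5.46 in Monolayer. Its bound was at least 1.45-fold below both cultures. PTGES, which makes prostaglandin E2, was the other gene with a bound over 1 log2, at least 2.60-fold below both cultures, and C1R, MR1, TAPBPL, NLRC5 and CASP4 had bounds under 1 log2.

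Interferon and antigen presentation genes moved in both directions, with more of them lower than higher in iCSC. Of 29 tested interferon-stimulated genes, 10 were lower and 6 higher in iCSC than in Sphere, and 15 were lower and 6 higher than in Monolayer, with medians of -0.13 and -0.55. GBP3 is among the lower by the rule, which leaves 9 and 14 others, and over all tested genes 19.2% were lower and 19.3% higher than in Sphere, and 26.6% and 29.0% than in Monolayer. GBP1 and GBP2, paralogs of GBP3 whose probe sets may share sequence with it, were among the lower. GBP1 read 5.45 and 6.44 in iCSC, 8.13 and 8.02 in Sphere, and 9.37 and 9.49 in Monolayer. IRF1, an interferon-induced transcription factor, fell to 5.07 and 5.64 in iCSC, against 8.22 and 8.40 in Sphere and 7.47 and 6.98 in Monolayer (log2 -2.95 ± 0.26 and -1.87 ± 0.26, SE; limma, adjusted p = 0.000293 and 0.00128). ISG15, a ubiquitin-like modifier, rose instead, with 8.84 and 8.73 in iCSC, 7.63 and 7.56 in Sphere, and 8.42 and 7.92 in Monolayer. Of 15 antigen processing genes, 6 were lower and 2 higher than in Sphere, and 10 were lower and 1 higher than in Monolayer, and NLRC5 is among the lower by the rule in both comparisons, which leaves 5 and 9 others. HLA-B, a class I heavy chain, fell to 9.66 and 8.93 in iCSC, against 11.02 and 10.85 in Sphere and 10.35 and 10.44 in Monolayer, and HLA genes share sequence that probe sets may not tell apart.

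Regulators of transcription and RNA were the largest group, with 15 genes, of which 6 had a bound of 1 log2 or more. BHLHE40, a basic helix-loop-helix repressor linked to the circadian clock, read 4.47 and 4.65 in iCSC, 7.37 and 8.97 in Sphere, and 8.27 and 8.20 in Monolayer. The Sphere arrays lay on either side of the Monolayer arrays, and the bound below both cultures was at least 9.003-fold. ELL2, a subunit of the super elongation complex of RNA polymerase II, read 4.08 and 3.63 in iCSC, 6.84 and 7.57 in Sphere, and 9.35 and 9.35 in Monolayer. NPAS3, a basic helix-loop-helix PAS factor of the nervous system, read 3.86 and 3.75 in iCSC, 7.18 and 7.38 in Sphere, and 6.48 and 7.35 in Monolayer. ELL2 was lower in Sphere than in Monolayer by 4.43-fold (limma, adjusted p = 0.000853), while NPAS3 did not pass (adjusted p = 0.326).

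GATA2, a zinc finger factor of sympathetic neuron precursors and blood stem cells, was nearly flat between the untreated cultures. It read 4.31 and 4.41 in iCSC, 6.08 and 5.95 in Sphere, and 5.95 and 5.96 in Monolayer, a bound of at least 1.94-fold. The other 23 tested sympathoadrenal genes lay mostly above Monolayer, since 15 of the 24 were higher in iCSC than in Monolayer and 2 were lower, of which GATA2 is 1. Against Sphere, 18 of the 24 were lower, again with GATA2 by the rule and 17 others, and 0 were higher (limma with Benjamini-Hochberg adjustment). Over all tested genes 19.2% were lower and 19.3% higher than in Sphere, and 26.6% and 29.0% than in Monolayer. The list medians were -1.69 against Sphere and 2.27 against Monolayer. GATA3, the relative of GATA2, remained measured in iCSC at 7.98 and 8.40, against 12.48 and 12.13 in Sphere and 8.68 and 8.21 in Monolayer. Of the 15 regulators, 3 were lower and 3 higher in Sphere than in Monolayer, and 9 were not called. Over the genes at the limit 28.9% were lower and 26.4% higher in that comparison.

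Of the 10 adhesion, synapse and small GTPase regulators, 4 were called higher in Sphere than in Monolayer, 0 lower, and 6 were not called. Over the genes at the limit 26.4% were called higher and 28.9% lower, and a group of 10 genes is small. Besides RIPOR3 and STXBP5, described above, the 4 called higher were NPTXR, a neuronal pentraxin receptor, and RASSF5, a Ras-association protein. The call of NPTXR (limma, adjusted p = 0.0114) was lost without variance moderation, without Monolayer replicate 2 and without Sphere replicate 2 (range over the alternatives 0.00155 to 0.0684). DENND1B, an exchange factor for a Rab GTPase, read 4.12 and 4.24 in iCSC, 6.77 and 6.49 in Sphere, and 7.17 and 6.99 in Monolayer. RASSF2, another Ras-association protein that is often methylated in tumours, read 4.59 and 2.85 in iCSC, 7.13 and 7.28 in Sphere, and 6.09 and 6.06 in Monolayer. Its iCSC arrays differed by 1.74, the widest spread in that culture among the 63 genes. Its bound against both untreated cultures was at least 2.11-fold. RASSF5 read 4.40 and 4.95 in iCSC, 6.05 and 6.22 in Sphere, and 5.47 and 5.25 in Monolayer. Its iCSC arrays were close to the limit, and its excess of Sphere over Monolayer (0.78 ± 0.23 log2, SE; limma, adjusted p = 0.0272) was lost under 7 of 14 alternatives (range 0.00392 to 0.128). Of 27 tested death receptor, apoptosis and RASSF genes, which hold CASP4, RASSF2 and RASSF5, 11 were lower and 2 higher in iCSC than in Sphere, and 12 were lower and 9 higher than in Monolayer. The 3 members are among the lower by the rule, which leaves 8 and 9 others, and over all tested genes 19.2% were lower and 19.3% higher than in Sphere, and 26.6% and 29.0% than in Monolayer. CASP8, the initiator caspase of death receptors, was lower in iCSC but far above the limit, at 8.86 and 8.75, against 9.19 and 9.51 in Sphere and 9.19 and 9.43 in Monolayer (limma, adjusted p = 0.0332 and 0.0310).

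Among the remaining 9 genes, of protein turnover and other functions, HSPA2 had by far the largest bound. HSPA2, an HSP70 chaperone best known from the testis, read 2.98 and 3.28 in iCSC, 9.60 and 9.54 in Sphere, and 9.08 and 9.10 in Monolayer. Arrays of 1 culture lay close together, and iCSC was at least 23.8-fold below Sphere and at least 17.0-fold below Monolayer. Sphere was 0.48 ± 0.16 above Monolayer (log2, SE; limma, adjusted p = 0.0420), a call lost under 8 of 14 alternatives (range 0.0162 to 0.157), among them the omission of any Sphere or Monolayer array. Of these 9 genes, 5 were lower and 1 higher in Sphere than in Monolayer, against 28.9% and 26.4% of the genes at the limit. MB21D2, OTUB2, a deubiquitinase, and AP4S1, a subunit of an adaptor complex of vesicle coats, were among the lower ones. The call of AP4S1 (limma, adjusted p = 0.0162) was lost when either Monolayer array or Sphere replicate 1 was left out (range over the alternatives 0.00366 to 0.0638).

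**Figure D4:**
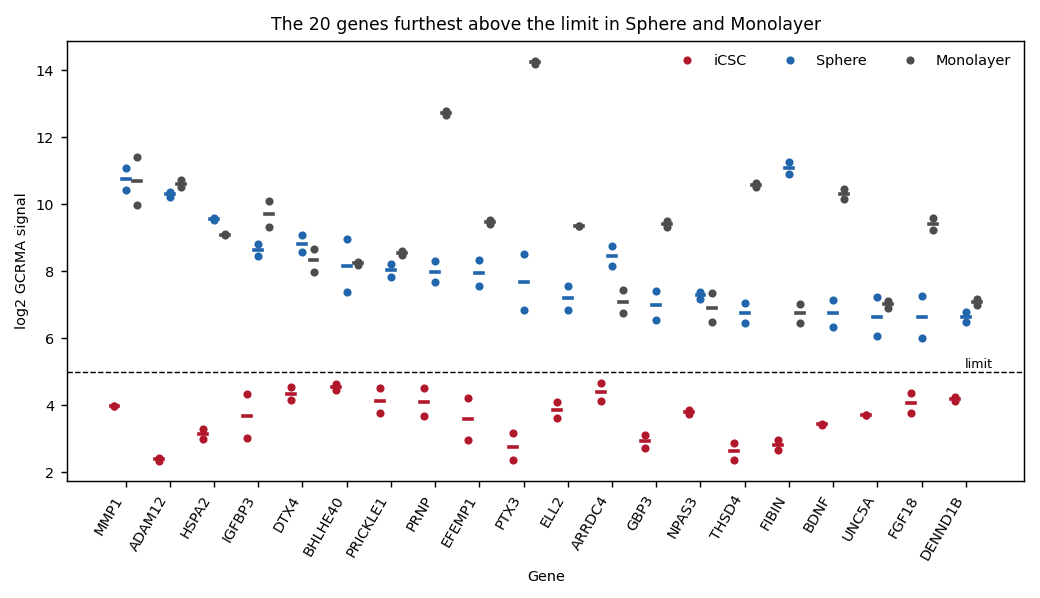
Level (log2 GCRMA signal, vertical axis) of the 20 genes with the largest bound (horizontal axis, in order of the bound), with 1 point per array and a bar at the mean of 2, for iCSC (red), Sphere (blue) and Monolayer (grey). The dashed line is the limit of 5, iCSC points run from 2.35 for ADAM12 to 4.66 for ARRDC4, and PTX3 and PRNP are far higher in Monolayer than in Sphere while FIBIN is far higher in Sphere.

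Replicate arrays of a culture differed in some of these genes. The arrays were over 1 log2 apart for 7 genes in iCSC, 7 in Sphere and 1 in Monolayer, which was MMP1. In Sphere, 6 of the 7 were higher on replicate 2 (BHLHE40, FGF18, PTX3, S100A3, SOCS3 and TGFB1), and UNC5A was higher on replicate 1. Across the 63 genes, taken as a description since genes are no replicates, replicate arrays correlated at r = 0.708 in iCSC, 0.922 in Sphere and 0.983 in Monolayer (Pearson). The iCSC values all lie in a band under 5, which narrows what a correlation can show there.

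Other probe sets of the same genes were read on the same arrays. The rule kept the probe set with the highest mean, so low values on the others were likely beforehand. They are a description and no independent check. Of the 63 genes, 44 had 92 further probe sets and 19 had none. No iCSC array reached the limit with any of the 92. On untreated arrays 64 of the 92 stayed under the limit as well, and 28 reached it on at least 1 array. The whole pattern was met by 11 further probe sets of 7 genes, namely ADAM12, AP4S1, DENND1B, ELL2, IGFBP3, NPAS3 and PRICKLE1. ADAM12, for example, read 2.91 and 2.98 in iCSC, 8.25 and 8.59 in Sphere, and 9.79 and 9.48 in Monolayer with one of them. Another 17 probe sets of 14 genes reached the limit on only some untreated arrays. In PRNP a further probe set read 3.21 and 3.18 in iCSC, 3.27 and 3.81 in Sphere, and 9.40 and 9.10 in Monolayer, so that Sphere too was under the limit. In STXBP5 one read 3.31 and 3.34 in iCSC, 9.21 and 9.33 in Sphere, and 2.75 and 2.80 in Monolayer. Further probe sets were under the limit in Sphere for EFEMP1 (4.46 and 3.11), THSD4 (3.55 and 3.91) and FBN1 (4.74 and 4.19). One of FIBIN was under it in Monolayer (3.63 and 3.90). For these genes the choice of probe set decided whether an untreated culture stood above the limit.

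The 63 genes lay on 20 chromosomes. PRNP and RASSF2 on chromosome 20 were the 1 pair of neighbours among genes at log2 5 or more on at least 2 arrays. Chromosome 14 held 6 of them (HSPA2, NPAS3, AP4S1, ZNF839, OTUB2 and NRDE2) among its 292 genes at the limit, or 2.05%, and chromosomes 15, 20 and 5 followed with 1.58%, 1.52% and 1.41%. The X chromosome held 0 of 294, and over all genes at the limit the share was 0.699%. These shares were not tested. Over the genes of chromosome 14 at the limit, the median log2 difference was -0.68 for iCSC minus Sphere and -0.63 for iCSC minus Monolayer, against 0.01 and -0.01 over all such genes. Lower iCSC values on chromosome 14 were thus not limited to the 6 genes, and the part of the chromosome in their values was not tested. The bounds of the 6 genes were 4.09 log2 for HSPA2, 1.91 for NPAS3, 1.13 for AP4S1, 0.64 for ZNF839, 0.57 for OTUB2 and 0.17 for NRDE2, and the other 57 genes lay elsewhere. On chromosome 15 the medians were 0.47 and -0.02, on chromosome 20 they were 0.22 and 0.05, and on chromosome 5 they were -0.31 and -0.43.

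**Figure D5:**
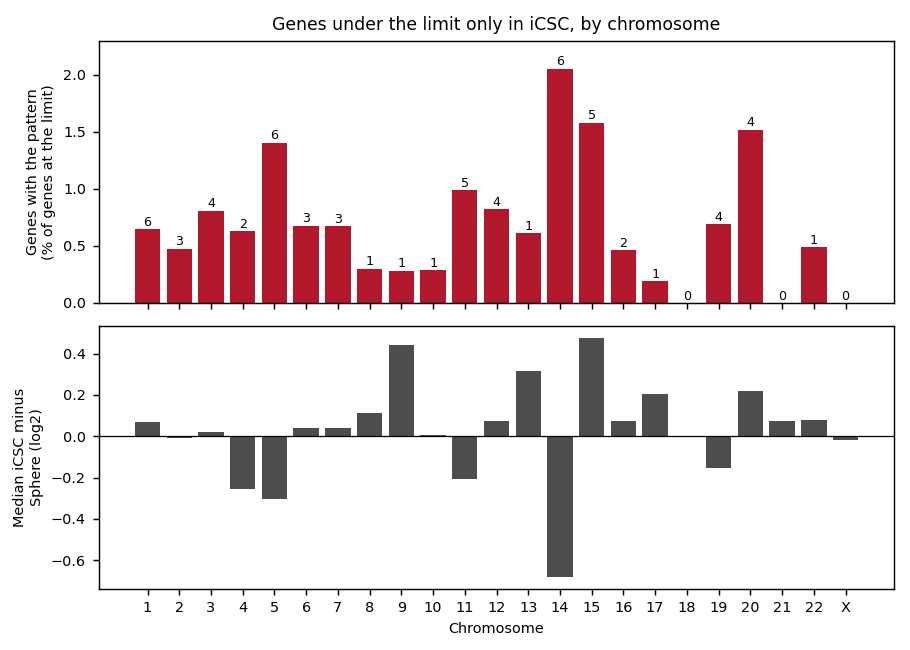
Upper panel, percent of a chromosome's genes at the limit in Sphere and Monolayer that were under it only in iCSC (vertical axis), with the number of such genes above each bar. Lower panel, median iCSC minus Sphere difference (log2) over all genes of the chromosome at the limit, for chromosomes 1 to 22 and X. Among the chromosomes drawn, chromosome 14 has the tallest upper bar (2.05%) and the lowest median (-0.68).

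The limit of 5 cut through a continuous range of values. Just inside it, ZNF414 read 4.97 and 4.88 in iCSC, 5.01 and 5.00 in Sphere, and 5.00 and 5.01 in Monolayer, and TAPBPL read 4.84 and 4.99 in iCSC, 5.15 and 5.18 in Sphere, and 5.34 and 5.09 in Monolayer. Just outside it, PARP3 read 5.00 and 4.96 in iCSC, 5.05 and 5.04 in Sphere, and 5.04 and 5.05 in Monolayer, with 1 iCSC array over the limit by 0.0009. CEP128 missed by 1 iCSC array as well, at 4.89 and 5.03 in iCSC, 6.997 and 7.12 in Sphere, and 7.78 and 7.11 in Monolayer. In all, 79 genes missed the pattern through 1 iCSC array alone and 17 through 1 Sphere or Monolayer array alone. Counted before any gene was left out by name, 65 genes were under the limit only in iCSC. By the same count, 127 were under it only in Sphere, 343 only in Monolayer, and 167 were above it only in iCSC. In the fit of all tested genes, 60 of the 63 were called lower in iCSC than in Sphere, where 38.5% of all tested genes were called and 19.2% were lower (34.8% and 17.4% of the genes at the limit). Against Monolayer 60 were called lower as well, where 55.6% of all tested genes were called and 26.6% were lower (52.8% and 26.9% of the genes at the limit). The rule used those contrasts, so these counts carry no evidence.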

How the data were processed

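Levels were read from the deposited series matrix, 1 column per array, as log2 signals, and GCRMA and Partek are the names in the submitters' processing notes, with no version stated in the sources used. Probe sets were named by the platform annotation, with symbols updated by Entrez ID to RefSeq GRCh38.p14, from which chromosomes, gene order and start windows also came. Of 54675 probe sets, 41097 had a single symbol, 1801 several and 11777 none or were controls. Per gene the probe set of the highest mean was kept. The 10459 genes at log2 5 or more on at least 2 arrays were fitted on all 6 arrays with limma 3.58.1 in R 4.3.3 (lmFit, eBayes with a mean-variance trend, 3 residual degrees of freedom), and p-values were adjusted by Benjamini-Hochberg at 0.05. The fit was also run on simulated data with independent errors between arrays, which cannot show how far separate cultures vary. Values under 5 in iCSC were set to 5, so a fold against iCSC is a bound ("at least"). Tables and plots used Python 3.11.15, pandas 2.3.3, numpy 2.4.6 and matplotlib 3.10.9. 2 arrays a culture limit the precision.

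The members, the gene lists and the role groups were chosen with earlier results of these data known, and the role groups after the members were seen. Named members are the 20 with the highest bound, up to 4 of each list, the 8 called members with the largest difference between Sphere and Monolayer in each direction, neighbours on a chromosome, and members nearest the limit. Other names, such as list genes that are no members, were chosen after their values were seen. Alternatives covered the filter, a floor at 5, quantile normalization, median centring and the omission of probe sets whose names end in s_at or x_at. They also covered variance trend and moderation, a replicate block, each array left out, and other limits for membership.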

Additional observations from a re-analysis of the deposited data

How the results depend on the processing

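Of the 32 genes called between Sphere and Monolayer, 20 kept the call under each of the 15 alternatives in which they were tested and 12 lost it under at least 1, none of the 32 turned sign, and 16 of the 31 others passed under at least 1. The called number was 21 without variance moderation (6 higher in Sphere) and 21 without probe sets whose names end in s_at or x_at. Without those probe sets 43 of the 63 were tested and 13 were lower. With a filter at log2 7, 34 were tested, 7 were higher in Sphere and the median was -1.02. Leaving out 1 array gave 26 to 34 called, 7 to 12 higher, 16 to 22 lower, a median of -0.44 to -0.25 and 4530 to 6604 of all genes, the 7 being without Monolayer replicate 2. The number of genes with the pattern was 63 to 112 with 1 array left out (112 without iCSC replicate 2, 93 without iCSC replicate 1), and 26 with a limit of 6 for the untreated arrays alone. Which genes had it moved more: a limit of 4 gave 52 genes (25 of them among the 63), a limit of 6 gave 76 (26 among the 63) and the mean of a gene's probe sets gave 68 (26 among the 63).

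Replicate numbers did not establish a pairing, since deviations of same-numbered arrays correlated at 0.17 (iCSC and Sphere), -0.05 (iCSC and Monolayer) and 0.02 (Sphere and Monolayer). With the replicate number as a block 32 genes were called, 11 higher and 21 lower, and 6219 of all genes.

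Differences that turned sign were all of genes not called. Quantile normalization gave CGNL1 -0.17, DYRK4 -0.025, GATA2 -0.10 and TRNP1 -0.15. With 1 array left out, the lowest and highest Sphere minus Monolayer differences were -0.65 and 0.78 for MMP1, -0.86 and 0.74 for BHLHE40, -0.27 and 0.35 for CGNL1, -0.0058 and 0.12 for GATA2, -0.18 and 0.077 for NLRC5, -0.069 and 0.80 for NPAS3, -0.50 and 0.025 for SCAND3, -0.64 and 0.056 for STARD13, -0.18 and 0.082 for TAPBPL, -0.96 and 0.20 for UNC5A, and -0.0042 and 0.0032 for ZNF414. The cause was not tested. Signals near the background of the array limit what genes close to log2 5 can show.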

Other observations

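Beyond the named genes, 13522 probe sets had no single gene symbol, 2019 of them at or above the limit on every untreated array, and 21 of these were under it on both iCSC arrays. The highest, 202207_at, read 3.84 and 3.66 in iCSC, 9.89 and 9.98 in Sphere, and 11.19 and 11.15 in Monolayer. Probe set 231513_at read 4.49 and 3.60 in iCSC, 9.28 and 9.23 in Sphere, and 5.33 and 5.29 in Monolayer, so only its Sphere arrays were far above the limit. No gene is given for them here.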
